A study of Homo sapiens with 6 samples.

Results

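The genes described here encode the subunits of RNA polymerases I, II and III and of Mediator, the complex that links gene-specific activators to RNA polymerase II. They were taken by name: every gene whose symbol on the array platform is POLR1, POLR2 or POLR3 followed by a letter, or MED followed by digits. Of the 19775 genes that had a probe set naming them alone, 59 met this rule, and 3 of them are copies of POLR2J that were kept apart, which left 28 polymerase and 28 Mediator genes. The antisense and pseudogene symbols POLR1HASP, MED14OS and MED15P9 were not counted. No single-gene probe set was found for POLR2M, POLR2J3, MED6 and MED25.

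The study took cells labelled HepG2, a line derived from a human liver cancer, and compared 2 transfections made with a cationic lipid and harvested after 48 h. One group of 3 arrays is labelled siRNF43 and received an siRNA against RNF43, a membrane E3 ubiquitin ligase that lowers Wnt receptors at the cell surface. The other group of 3 arrays is labelled siNC and received a negative control siRNA, so lipid and duplex RNA were common to both. Each group rests on 1 siRNA duplex. The labels call the arrays biological replicates without saying whether the cultures were separate, so a p-value here rests on array-to-array spread that may be technical. Where a cell mixture changes, fewer cells of a type and less RNA per cell cannot be told apart in such samples.

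RNA polymerase I transcribes the large ribosomal RNAs, polymerase II makes messenger RNAs, and polymerase III makes transfer RNAs and other small RNAs. Each has its own catalytic core, and some small subunits are built into all of them. Mediator is organised into a head and a middle that touch polymerase II, a tail that meets activators, and a detachable kinase module that regulates this contact.

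Total RNA was hybridised to HG-U133 Plus 2.0 arrays, and values are log2 signals, which compare 1 probe set between arrays but not different probe sets with each other. Each gene was read from its brightest single-gene probe set. A gene was tested where the mean signal of that probe set was above 5.83, the median over all probe sets, and called changed at a Benjamini-Hochberg adjusted p below 0.05 from limma over all 11853 tested genes. Differences and folds compare arrays labelled RNF43 siRNA with arrays labelled control siRNA, and errors beside means are SDs over 3 arrays.

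RNF43 itself did not follow the labels. It read 8.19, 8.22 and 8.41 on arrays labelled RNF43 siRNA, against 7.65, 7.79 and 7.45 on arrays labelled control siRNA. The groups did not overlap, and RNF43 was 1.56-fold higher (log2 difference 0.64, SE 0.14, limma adjusted p = 0.0098, and exact two-sided permutation p = 0.1, the smallest that 3 against 3 arrays allow). Every direction below therefore follows the labels alone. Markers of the labelled cells were also largely missing: of 8 hepatocyte and HepG2 markers with a probe set, only AFP was above the filter, at 6.41 on RNF43-labelled arrays and 7.01 on control-labelled arrays, while ALB had 4.24 and 4.19. Of 8 fibroblast markers 5 were above the filter. COL3A1, DCN and ACTA2 were lower on RNF43-labelled arrays and none of the tested ones was higher. Over all 8 markers, tested or not, the summed linear signal was 11643 to 12806 on RNF43-labelled arrays and 14650 to 14913 on control-labelled arrays. LUM had the highest signal in this sum (means 13.17 and 13.36) and did not pass (limma adjusted p = 0.0926). The part of these markers in the subunit differences was not tested. Array medians lay between 5.89 and 6.02, and no array stood apart from its group.

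The antisense, target-binding strands of the duplexes are shown because they define the groups, with bases 2 to 8 from the 5′ end, the seed, in capitals.
RNF43 siRNA: aUAAUAGCuuucuguucugtt
Negative control siRNA: aCGUGACAcguucggagaatt

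Promoters were looked up for the members in the RefSeq table of GRCh38.p14, which runs from 250 bases before to 50 bases after each gene start and held 44 of the 59 genes. 8 motifs were searched on both strands. A gene counted where any of its promoters held the letters. CCGGAAG, the core bound by ETS factors, was found for 34.1% of the 44 member genes and 12.2% of all 27305 genes. GCGCANGCG, most of the NRF1 site, was found for 29.5% of the member genes and 9.02% of all. For the GC box, spelled GGGCGG, the shares were 63.6% in members and 48.3% in all, and for the YY1 core, spelled AAGATGGCG, they were 9.09% in members and 2.14% in all. The TATA box TATAAA was found in 4.55% of members and 13.99% of all. CCAAT, which can mark NF-Y sites, was found in 31.8% of members and 39.7% of all. The cyclic AMP response element TGACGTCA was found in 4.55% of members and 2.25% of all, and the E box CACGTG in 11.4% of members and 8.77% of all. These matches describe letters, not binding.

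The changed members differed in where CCGGAAG was found, given as a description with no test. Leaving POLR2J2 aside, it lay in the promoters of the 3 lower members in the table (MED11, POLR2D and POLR2C), in 0 of the 7 higher ones, and in 11 of the 31 that did not pass. Stretches around it, with its reverse complement CTTCCGG in capitals and read 5′ to 3′ along the gene's strand, were as follows.
MED11, chr17:4731378-4731457, plus strand: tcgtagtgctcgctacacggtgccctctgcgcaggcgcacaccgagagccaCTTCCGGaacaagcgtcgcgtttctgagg
POLR2D, chr2:127858126-127858205, minus strand: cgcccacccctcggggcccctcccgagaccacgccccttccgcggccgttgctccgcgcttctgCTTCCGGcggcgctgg
POLR2C, chr16:57462617-57462696, plus strand: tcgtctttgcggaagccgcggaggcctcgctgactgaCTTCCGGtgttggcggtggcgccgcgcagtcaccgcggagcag

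GCGCANGCG was found on both sides, in 5 of the 7 higher members, 1 of the 3 lower ones and 6 of the 31 that did not pass. The promoters of POLR3B and POLR2E, which were higher, are shown with these matches in capitals. In POLR3B, matches on the opposite strands overlap, and another of its 3 matches lies outside the stretch shown.
POLR3B, chr12:106358017-106358096, plus strand: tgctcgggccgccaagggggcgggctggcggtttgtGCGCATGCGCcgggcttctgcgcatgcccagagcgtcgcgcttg
POLR2E, chr19:1095346-1095425, minus strand: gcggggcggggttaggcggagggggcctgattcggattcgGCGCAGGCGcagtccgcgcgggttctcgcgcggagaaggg

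Transcripts of individual subunits moved in both directions on the arrays labelled RNF43 siRNA, and most subunits did not pass. Of the 54 tested members, 11 were higher, 6 were lower and 37 did not pass, where 11.5% of all tested genes were higher and 11.1% lower. Those 17 changed members are 31.5% of the tested members, beside 22.6% of all tested genes. Of the 4156 genes whose mean signal lay between the members' quartiles (9.37 and 11.54), 30.2% changed. The member share was close to this, although it also covers members outside those quartiles. Among polymerase genes 7 were higher and 3 lower of 28 tested (median log2 difference 0.07), and among Mediator genes 4 were higher and 3 lower of 26 (median -0.02), beside a median of -0.00283 over all tested genes. Changed members differed by 0.25 to 1.0 on the log2 scale, with a median fold of 1.35, and 4 differed by 0.5 or more (POLR3B, MED11, POLR2D and MED28). The groups did not overlap for 25 members, 16 with RNF43-labelled arrays above and 9 below, beside 38.9% of all tested genes (19.1% above and 19.8% below).

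**Figure D1:**
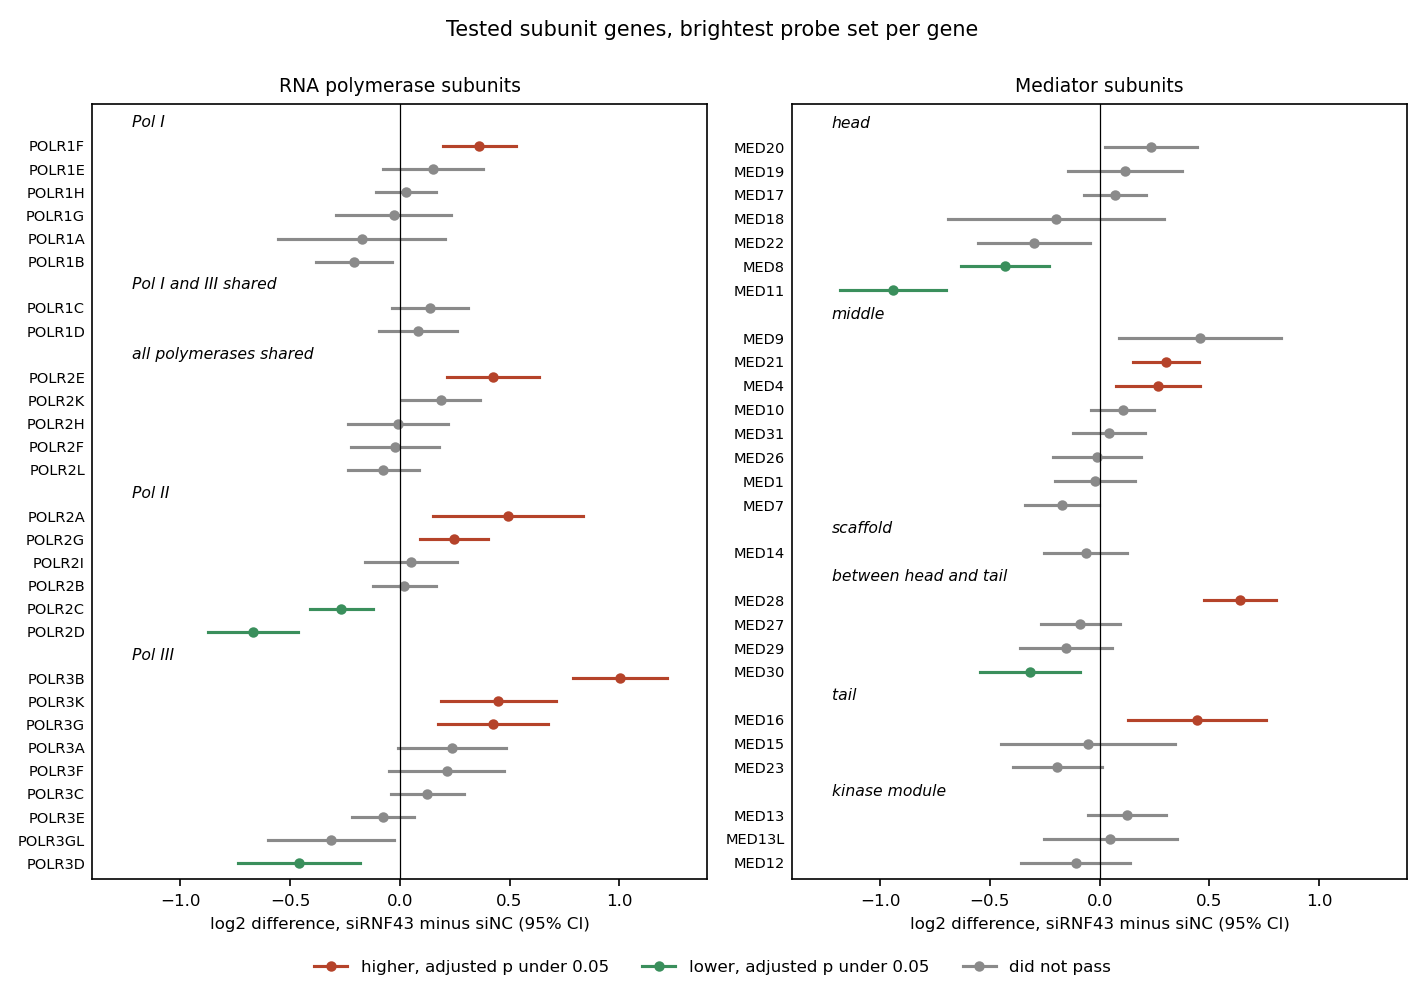
Log2 difference (arrays labelled RNF43 siRNA minus arrays labelled control siRNA) on the horizontal axis for each tested subunit gene, with bars for 95% confidence intervals from limma and colours for higher, lower and not passed. POLR3B lies farthest to the right at 1.0 and MED11 farthest to the left at -0.94, and higher and lower genes occur within both the polymerase and the Mediator genes.

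The median log2 signal over the tested polymerase genes was 11.22, 11.27 and 11.37 on RNF43-labelled arrays and 11.13, 11.21 and 11.07 on control-labelled arrays. Over the tested Mediator genes it was 10.49, 10.42 and 10.57 on RNF43-labelled arrays, against 10.59, 10.61 and 10.59 on control-labelled arrays. On RNF43-labelled arrays the polymerase medians lay above those of the control-labelled arrays, and the Mediator medians lay below. Each median follows the genes of middle signal in its list, so it does not show a shift of the list. Gene by gene, 17 of 28 polymerase genes had a positive difference and 11 a negative one (median 0.07). Of 26 Mediator genes, 12 had a positive difference and 14 a negative one (median -0.02). The median over all tested genes stayed between 9.60 and 9.62 on every array. It rests on far more genes, so its steadiness is no like comparison. Members had a median SD between replicates of 0.114 against 0.135 over all tested genes. They were also brighter (median log2 signal 10.73 against 9.61), and SDs were not compared at like brightness.

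Polymerase III had 3 higher genes (POLR3B, POLR3K and POLR3G) and 1 lower gene (POLR3D) among the 9 tested that belong to it alone, with a median difference of 0.21. Among all tested genes 11.5% were higher and 11.1% lower. POLR3B encodes the second-largest subunit, which forms the active centre together with POLR3A. Its probe set 219459_at read 10.78, 10.75 and 10.93 on RNF43-labelled arrays, against 9.73, 9.73 and 10.00 on control-labelled arrays. The lowest RNF43-labelled array was above the highest control-labelled array, and POLR3B was 2.00-fold higher (log2 difference 1.0, SE 0.10, 95% confidence interval 0.79 to 1.22, adjusted p = 7.12e-05). Its call ended only when all probe sets of a gene were averaged, where dim sets enter and the difference was 0.76 (adjusted p = 0.171). POLR3A, the largest subunit, averaged 9.04 ± 0.12 and 8.80 ± 0.11 on RNF43-labelled and control-labelled arrays, and its difference of 0.24 did not pass (adjusted p = 0.155).

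POLR3K, a small subunit that acts in transcript cleavage and termination, read 12.23, 12.26 and 12.55 on RNF43-labelled arrays and 11.67, 11.91 and 12.11 on control-labelled arrays. The groups did not overlap, and it was 1.36-fold higher (log2 difference 0.45, SE 0.12, adjusted p = 0.02002). Without RNF43-labelled replicate 3, or control-labelled replicate 1 or 2, the adjusted p was 0.0538 to 0.0773 at differences of 0.33 to 0.46. It was 0.0816 without an intensity trend, 0.19 averaged over probe sets and 0.436 without _x_at and _s_at sets, at differences of 0.41 to 0.45. POLR3D, which pairs with POLR3E in a module that works in initiation and termination, read 8.25, 8.08 and 8.44 on RNF43-labelled arrays and 8.81, 8.67 and 8.67 on control-labelled arrays. All RNF43-labelled arrays were below all control-labelled ones, and it was 1.37-fold lower (log2 difference -0.46, SE 0.13, adjusted p = 0.0245). Its call ended without replicate 1 or 2 of either group (differences -0.48 to -0.37, adjusted p = 0.0573 to 0.0964). Its partner POLR3E differed by -0.08 and did not pass (adjusted p = 0.446).

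POLR3G and POLR3GL encode alternative versions of the same polymerase III subunit, and POLR3G is the one known for high levels in stem and transformed cells. POLR3G read 8.94, 8.84 and 8.83 on RNF43-labelled arrays and 8.54, 8.52 and 8.28 on control-labelled arrays. It was higher on every RNF43-labelled array, by 1.34-fold on average (log2 difference 0.42, SE 0.11, adjusted p = 0.0221). Without RNF43-labelled replicate 1 or 2, or control-labelled replicate 3, its adjusted p was 0.0591 to 0.0737 (differences 0.34 to 0.44), and averaged over probe sets it was 0.238. POLR3GL read 9.59, 9.63 and 10.08 on RNF43-labelled arrays and 9.97, 10.08 and 10.19 on control-labelled arrays. One RNF43-labelled array lay within the range of the control-labelled arrays, and the difference of -0.31 did not pass (95% confidence interval -0.60 to -0.03, adjusted p = 0.112).

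Within each array, the log2 signal of POLR3G minus that of POLR3GL was -0.65, -0.79 and -1.25 on RNF43-labelled arrays and -1.43, -1.56 and -1.91 on control-labelled arrays. This value was higher on each RNF43-labelled array, with a log2 difference of 0.74, given as a description. The pair was chosen after its values were seen, and 3 against 3 arrays allow no exact p below 0.1. POLR3C and POLR3F, which form a trimer with either version and help open promoter DNA, differed by 0.13 and 0.21 and did not pass (adjusted p = 0.267 and 0.231).

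Polymerase II had changes on both sides: POLR2A and POLR2G were higher, and POLR2D and POLR2C were lower, of 6 tested genes that belong to it alone (11.5% of all tested genes were higher and 11.1% lower). POLR2D and POLR2G encode the partners of the stalk, a small heterodimer near the RNA exit channel, and their transcripts moved in opposite directions. POLR2D read 9.94, 9.96 and 9.89 on RNF43-labelled arrays, against 10.41, 10.66 and 10.72 on control-labelled arrays. The RNF43-labelled arrays were tightly grouped below all control-labelled arrays, and POLR2D was 1.59-fold lower (log2 difference -0.67, SE 0.09, 95% confidence interval -0.87 to -0.46, adjusted p = 0.000703). Its set without an _s_at name differed by -0.23 and did not pass (adjusted p = 0.287). POLR2G read 13.15, 12.93 and 13.10 on RNF43-labelled arrays and 12.78, 12.82 and 12.84 on control-labelled arrays. It was 1.19-fold higher with no overlap (log2 difference 0.25, SE 0.07, adjusted p = 0.0278), and its call ended without RNF43-labelled replicate 1 or 3 or control-labelled replicate 1 or 2 (differences 0.20 to 0.25, adjusted p = 0.0661 to 0.105). With no filter its adjusted p was 0.05003, and with no intensity trend 0.0888.

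POLR2A encodes the largest catalytic subunit, whose repeated C-terminal tail is phosphorylated during the transcription cycle. It read 9.57, 9.84 and 9.28 on RNF43-labelled arrays and 9.19, 9.22 and 8.81 on control-labelled arrays. The groups came close without overlapping, and POLR2A was 1.41-fold higher (log2 difference 0.49, SE 0.15, 95% confidence interval 0.15 to 0.83, adjusted p = 0.0419). It passed without RNF43-labelled replicate 3 but not without any other single array (differences 0.36 to 0.57, adjusted p = 0.0523 to 0.166), and the average over its probe sets was -0.18 (adjusted p = 0.684). With no filter and with no intensity trend its adjusted p was 0.0658 and 0.105. POLR2B, its catalytic partner, averaged 13.16 ± 0.06 on RNF43-labelled arrays and 13.14 ± 0.07 on control-labelled arrays, and its difference of 0.02 did not pass (95% confidence interval -0.12 to 0.16, adjusted p = 0.863).

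POLR2C encodes a core assembly subunit that pairs with the POLR2J product. It read 11.67, 11.60 and 11.68 on RNF43-labelled arrays and 11.95, 11.90 and 11.89 on control-labelled arrays. The groups stood apart with small spread, and POLR2C was 1.20-fold lower (log2 difference -0.27, SE 0.06, adjusted p = 0.0135). Without RNF43-labelled replicate 2 or control-labelled replicate 1 the adjusted p was 0.0598 to 0.0661 (differences -0.25 to -0.24), and averaged over probe sets it was 0.0566. POLR2I, which acts in transcriptional fidelity, differed by 0.05 and did not pass (adjusted p = 0.744).

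**Figure D2:**
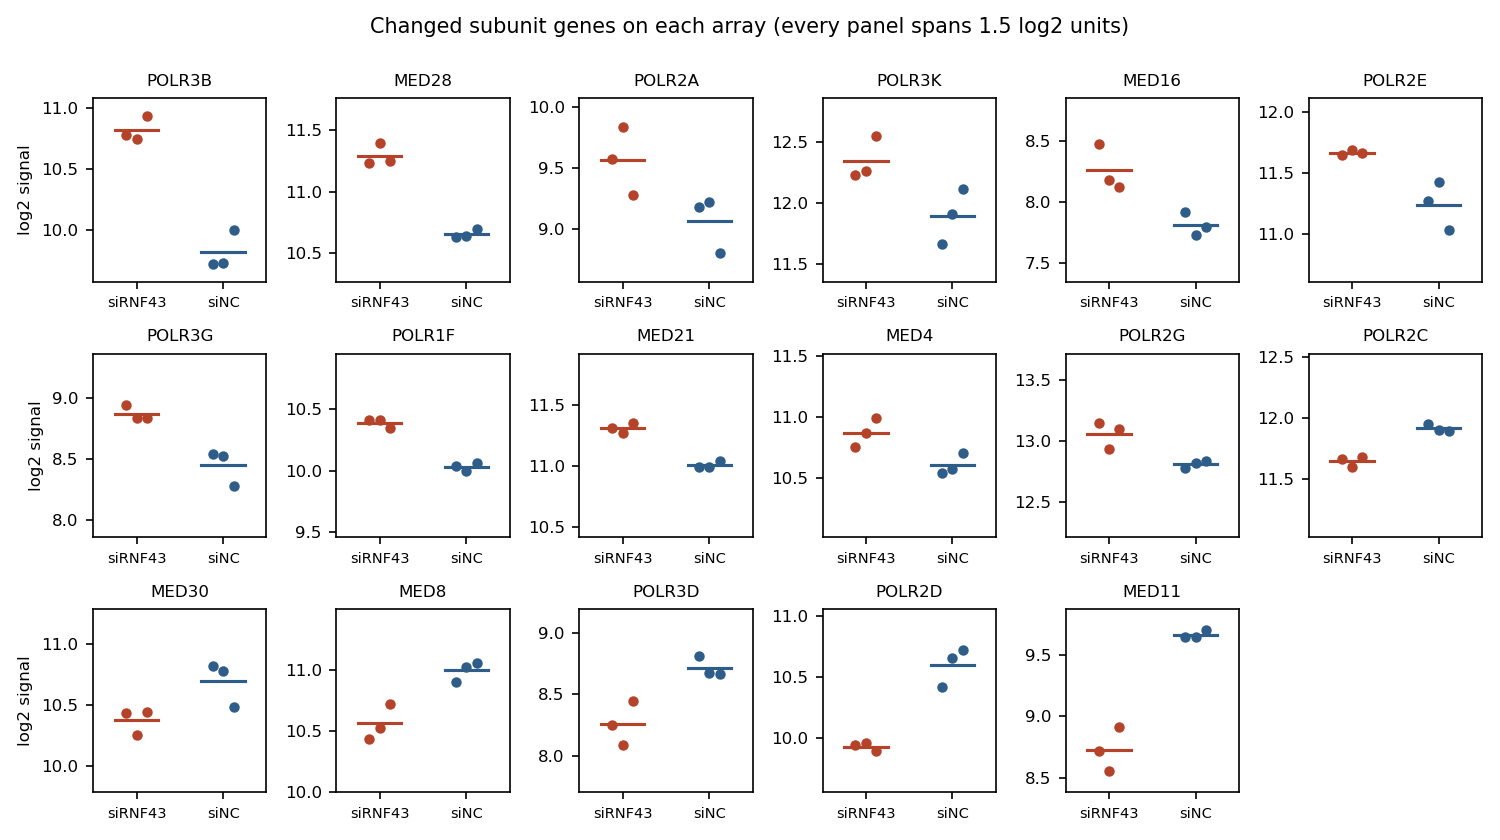
Log2 signal of each changed subunit gene on each array, with arrays labelled RNF43 siRNA left of arrays labelled control siRNA, a point per array and a line at each group mean. The groups do not overlap for any of the 17 genes, and the difference of means is widest for POLR3B (10.82 and 9.82 on average) and MED11 (8.73 and 9.67).

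Of the 5 tested subunits built into all the polymerases, POLR2E alone changed, where 22.6% of all tested genes did. POLR2E, which helps hold downstream DNA, read 11.64, 11.69 and 11.66 on RNF43-labelled arrays and 11.27, 11.42 and 11.03 on control-labelled arrays. It was higher on every RNF43-labelled array, by 1.34-fold on average (log2 difference 0.42, SE 0.09, adjusted p = 0.00944), and passed under all 15 alternatives that tested it. POLR2K averaged 12.70 ± 0.15 and 12.52 ± 0.05 on RNF43-labelled and control-labelled arrays, without overlap, and did not pass (difference 0.19, adjusted p = 0.122). The remaining shared subunits POLR2L, POLR2F and POLR2H differed by -0.08, -0.02 and -0.01, and none passed.

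Polymerase I had 1 changed gene of 6 tested, POLR1F, a stalk subunit, where 22.6% of all tested genes changed. POLR1F read 10.42, 10.41 and 10.35 on RNF43-labelled arrays and 10.04, 9.99 and 10.06 on control-labelled arrays. The replicates were close together and the groups apart, and it was 1.28-fold higher (log2 difference 0.36, SE 0.07, adjusted p = 0.00651). Averaged over its probe sets the difference was 0.18 and did not pass (adjusted p = 0.353). POLR1B, the second-largest subunit, read 11.46, 11.46 and 11.44 on RNF43-labelled arrays and 11.54, 11.65 and 11.80 on control-labelled arrays. Its groups did not overlap, but the difference of -0.21 did not pass (adjusted p = 0.0844). POLR1A, the largest subunit, differed by -0.17 (adjusted p = 0.521), and POLR1C and POLR1D, which polymerases I and III share and use for assembly, differed by 0.14 and 0.08 (adjusted p = 0.25 and 0.497). The other polymerase I subunits POLR1E, POLR1G and POLR1H differed by 0.15, -0.03 and 0.03, and none passed.

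In Mediator, 2 head genes (MED11 and MED8) were lower and none higher of 7 tested (median -0.20), and 2 middle genes (MED21 and MED4) were higher and none lower of 8 tested (median 0.07). Over all tested genes 11.5% were higher and 11.1% lower, and the difference between modules was not tested. MED11 encodes a small head subunit that pairs with MED22. Its probe set 226958_s_at read 8.72, 8.55 and 8.91 on RNF43-labelled arrays, against 9.65, 9.65 and 9.70 on control-labelled arrays. Every RNF43-labelled array was well below the control-labelled arrays, and MED11 was 1.92-fold lower (log2 difference -0.94, SE 0.11, 95% confidence interval -1.18 to -0.70, adjusted p = 0.000206), with a call in all 15 alternatives that tested it. This _s_at set is the only single-gene set of MED11. Averaging probe sets therefore left its values unchanged, and it was not tested without _s_at sets. MED22 averaged 9.08 ± 0.17 on RNF43-labelled arrays and 9.38 ± 0.13 on control-labelled arrays, with overlap, and its difference of -0.30 did not pass (adjusted p = 0.0899).

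MED8, a head subunit that tethers MED18 and MED20, read 10.44, 10.53 and 10.72 on RNF43-labelled arrays and 10.90, 11.03 and 11.06 on control-labelled arrays. It was lower on every RNF43-labelled array, by 1.35-fold on average (log2 difference -0.43, SE 0.09, adjusted p = 0.00675). The difference was -0.05 and did not pass when probe sets with _s_at or _x_at names, which can match several transcripts, were left out, and -0.17 when its sets were averaged (adjusted p = 0.747 and 0.13). The tethered subunits differed in opposite directions without passing, MED18 by -0.20 (adjusted p = 0.574) and MED20 by 0.23 (adjusted p = 0.106). MED17, the head's central scaffold, and MED19, at its border with the middle, differed by 0.07 and 0.12 and did not pass.

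In the middle module, MED21 forms a hinge with MED7. MED21 read 11.31, 11.27 and 11.35 on RNF43-labelled arrays and 10.99, 10.99 and 11.04 on control-labelled arrays. The spread was small beside the gap, and MED21 was 1.23-fold higher (log2 difference 0.30, SE 0.07, adjusted p = 0.00939), passing under all 16 alternatives. MED7 averaged 10.64 ± 0.02 on RNF43-labelled arrays and 10.81 ± 0.09 on control-labelled arrays. All its RNF43-labelled values were below the control-labelled ones, but the difference did not pass (difference -0.17, 95% confidence interval -0.34 to -0.00, adjusted p = 0.136).

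MED4 and MED9 form another pair of the middle. MED4 read 10.75, 10.87 and 11.00 on RNF43-labelled arrays and 10.54, 10.57 and 10.70 on control-labelled arrays. The groups were separated by a narrow gap, and MED4 was 1.20-fold higher (log2 difference 0.27, SE 0.09, adjusted p = 0.0493). Without RNF43-labelled replicate 2 or 3, or control-labelled replicate 1 or 2, its adjusted p was 0.122 to 0.162 (differences 0.20 to 0.27), and with only its other probe set the difference was -0.17 (adjusted p = 0.316). The call also ended averaged over both sets (0.05, adjusted p = 0.763), with quantile normalization, with no filter and with no intensity trend (adjusted p = 0.0543 to 0.1). MED9 read 8.25, 7.89 and 8.29 on RNF43-labelled arrays and 7.47, 7.70 and 7.89 on control-labelled arrays. Its groups were barely apart at 7.89, and its difference of 0.46, the widest of any member that did not pass, had an adjusted p of 0.0745. MED1, which contacts nuclear receptors, and MED26, which recruits elongation factors, differed by -0.02 and -0.01 and did not pass. Nor did the remaining middle subunits MED10 (0.11, without overlap) and MED31 (0.04).

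The subunits between head and tail held 1 higher gene, MED28, and 1 lower gene, MED30, of 4 tested, and both belong to the part of Mediator found in animals. Among all tested genes 11.5% were higher and 11.1% lower. MED28 read 11.23, 11.40 and 11.25 on RNF43-labelled arrays, against 10.63, 10.64 and 10.69 on control-labelled arrays. All RNF43-labelled arrays were far above the control-labelled arrays, and MED28 was 1.56-fold higher (log2 difference 0.64, SE 0.07, 95% confidence interval 0.47 to 0.80, adjusted p = 0.000218). Averaged over its probe sets the difference was 0.12 (adjusted p = 0.704). MED30 read 10.44, 10.25 and 10.44 on RNF43-labelled arrays and 10.81, 10.77 and 10.48 on control-labelled arrays. It was 1.24-fold lower with a gap of little width (log2 difference -0.32, SE 0.10, adjusted p = 0.0493), and its call held without control-labelled replicate 3 but not without any other single array (differences -0.35 to -0.25, adjusted p = 0.0558 to 0.178). It was also lost with arrays centred on their medians (-0.28, adjusted p = 0.107), with no filter, with no intensity trend, without _x_at and _s_at sets, and averaged over probe sets (-0.59, adjusted p = 0.222). MED27 and MED29, of the same region, differed by -0.09 and -0.16 and did not pass.

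In the tail, MED16, which meets activators, read 8.47, 8.18 and 8.12 on RNF43-labelled arrays and 7.92, 7.73 and 7.80 on control-labelled arrays. It was higher on each RNF43-labelled array, by 1.36-fold on average (log2 difference 0.44, SE 0.14, adjusted p = 0.0463). It passed without RNF43-labelled replicate 3 but not without any other single array (differences 0.34 to 0.50, adjusted p = 0.0713 to 0.155). Averaged over its probe sets the difference was 0.09 (adjusted p = 0.885), and with no signal filter the adjusted p was 0.0969. The other tested tail subunits, MED23 and MED15, differed by -0.19 and -0.05 and did not pass (adjusted p = 0.166 and 0.867), and MED24 was not tested because its single-gene probe set was dim (1.69, 2.25 and 3.62 on RNF43-labelled arrays, 1.20, 3.04 and 2.18 on control-labelled arrays). A set that MED24 shares with MIR6884, 213043_s_at, averaged 8.33 ± 0.17 on RNF43-labelled arrays and 8.59 ± 0.12 on control-labelled arrays and did not pass (difference -0.26, adjusted p = 0.236). MED14, the backbone that joins the modules, averaged 11.45 ± 0.03 on RNF43-labelled arrays and 11.51 ± 0.16 on control-labelled arrays, and did not pass (difference -0.06, adjusted p = 0.643).

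None of the 3 tested subunits of the kinase module passed. MED13, which docks the module on the core, differed by 0.12 (adjusted p = 0.301), MED12, which activates the kinase, by -0.11 (adjusted p = 0.535), and MED13L, the alternative to MED13, by 0.05 (adjusted p = 0.845). MED12L, the alternative to MED12, was too dim to test, at 4.64, 2.80 and 2.03 on RNF43-labelled arrays and 1.95, 4.53 and 4.86 on control-labelled arrays. Of 3 partners of this module, the kinase CDK8 passed, while its alternative CDK19 (difference -0.25, no overlap, adjusted p = 0.103) and their cyclin CCNC (0.12, adjusted p = 0.5) did not. CDK8 read 10.10, 10.25 and 10.18 on RNF43-labelled arrays and 9.61, 9.67 and 9.53 on control-labelled arrays, without overlap, and was 1.49-fold higher (log2 difference 0.57, SE 0.09, adjusted p = 0.00106).

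POLR2J encodes a core assembly subunit of polymerase II and has near-identical copies on the same chromosome, so a probe set named for one copy may read another. POLR2J read 13.02, 12.86 and 12.97 on RNF43-labelled arrays and 12.92, 12.95 and 13.03 on control-labelled arrays. The groups overlapped, and the difference of -0.01 did not pass (95% confidence interval -0.16 to 0.13, adjusted p = 0.911). The set named for POLR2J2, 228823_at, read 5.70, 4.99 and 4.35 on RNF43-labelled arrays and 7.23, 6.53 and 6.57 on control-labelled arrays. Every RNF43-labelled array was below the control-labelled arrays, and the means were 5.01 ± 0.68 and 6.78 ± 0.40.

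POLR2J2 is given without a fold or a call. Its RNF43-labelled mean was under the filter of 5.83, so it entered the test only through the control-labelled arrays, and MAS5 signals are noisy at this level. The log2 difference was -1.76 as deposited and -0.83 with 64 added to the linear signal. POLR2J4 averaged 8.92 ± 0.39 on RNF43-labelled arrays and 8.85 ± 0.15 on control-labelled arrays, and its difference of 0.07 did not pass (adjusted p = 0.824). The probe sets 1552621_at, 1552622_s_at and 216242_x_at, which name several copies, differed by -0.20, -0.11 and -0.16, and none passed among 27306 probe sets.

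**Figure D3:**
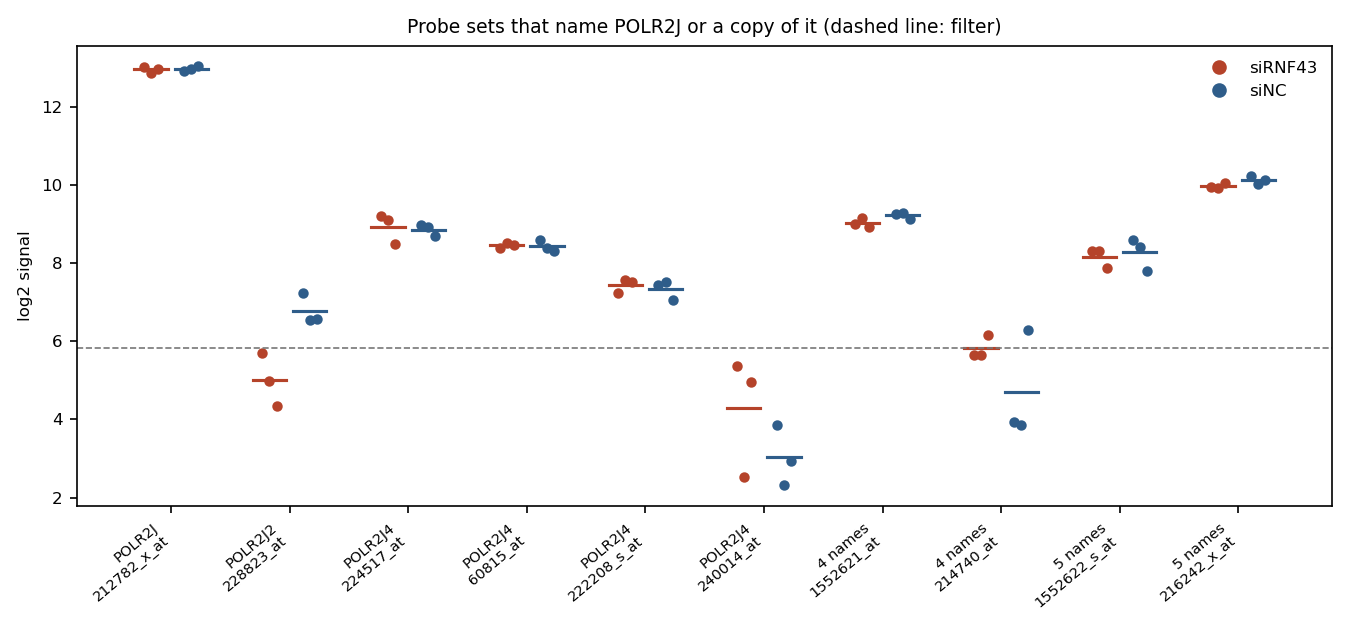
Log2 signal of every probe set that names POLR2J or a copy of it, with a point per array and arrays labelled RNF43 siRNA left of arrays labelled control siRNA. The POLR2J2 set sits lower on RNF43-labelled arrays (means 5.01 and 6.78), while the brightest POLR2J set overlaps between the groups.

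Further probe sets of the same genes gave a check on how far a gene's value rests on 1 set. Beside the brightest sets, 66 further single-gene sets were tested in 39 of the 59 genes, and 47 differed in the same direction as the brightest. The changed genes had 22 of these in 13 genes: 4 passed in the same direction, 18 did not pass and none passed in the opposite one, beside 15.5% of all tested probe sets that passed. The 4 were 208996_s_at of POLR2C (difference -0.29), 213887_s_at of POLR2E (0.37), 209363_s_at of MED21 (0.25) and 222635_s_at of MED28 (0.48). Of the 22 further sets of changed genes, 17 differed in the same direction as the brightest and 5 in the opposite one. In this fit over probe sets, the brightest sets of MED16, MED30, MED4 and POLR2A had adjusted p-values of 0.0717, 0.0772, 0.0733 and 0.0724 and no longer passed. Over all tested single-gene sets of members and POLR2J copies, brightest and further, 19 passed in this fit. As a share of those sets, this was close to the 15.5% of all tested probe sets.

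Sets of a gene disagreed in size or sign in several cases. MED16's set 221938_x_at differed by -0.38 and MED4's set 222438_at by -0.17, beside 0.44 and 0.27 for their brightest sets, and neither of these further sets passed. MED28's second-brightest set, 218438_s_at, averaged 10.54 ± 0.13 on RNF43-labelled arrays and 10.54 ± 0.13 on control-labelled arrays, a difference of 0.00 beside 0.64 for its brightest set. MED8's other sets, 213127_s_at and 213126_at, differed by -0.04 and -0.05 beside -0.43. The opposite case was MED17, whose set 223115_at was 0.32 higher (adjusted p = 0.0468) although the brightest differed by 0.07. Whether such sets read different transcripts of the gene was not tested.

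**Figure D4:**
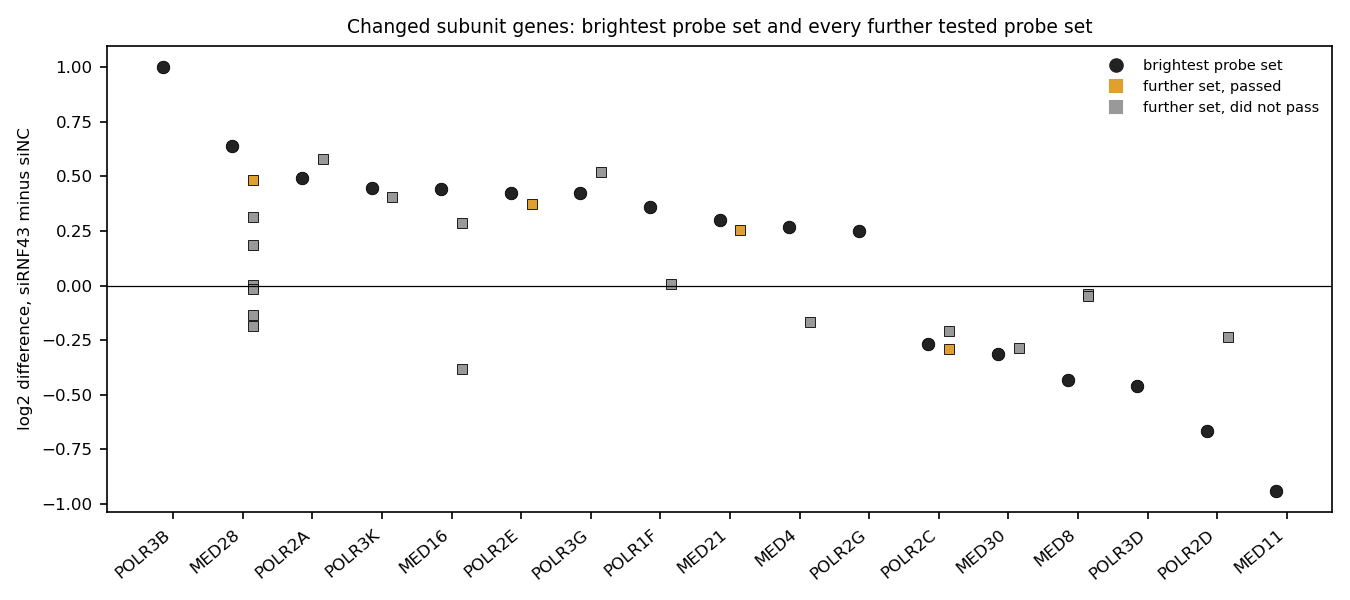
Log2 difference (arrays labelled RNF43 siRNA minus arrays labelled control siRNA) of the brightest probe set, as a circle, and of each further tested set, as a square, for the 17 changed subunit genes, some of which had no further set. The squares of POLR2C, POLR2E and MED21 include one that passed beside its circle, whereas those of MED28 range from -0.19 to 0.48.

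Of 98 tested genes for proteins that work with these complexes, in 8 lists, 6 were higher and 6 were lower. These are 12.2% of them, beside 22.6% of all tested genes. Among polymerase III initiation factors 1 of 16 changed, GTF3A, which starts transcription of ribosomal 5S genes. GTF3A read 12.67, 12.57 and 12.64 on RNF43-labelled arrays and 13.07, 13.15 and 13.09 on control-labelled arrays, without overlap, and was 1.39-fold lower (log2 difference -0.48, SE 0.06, adjusted p = 0.000445). Without _x_at and _s_at sets the GTF3A difference was -0.04 and did not pass (adjusted p = 0.863). Among polymerase I initiation factors 1 of 7 changed, TAF1D, which was 1.20-fold lower (log2 difference -0.27, adjusted p = 0.0464). TAF1D passed without RNF43-labelled replicate 3 but not without any other single array (differences -0.31 to -0.19, adjusted p = 0.0661 to 0.169). Centring the arrays, dropping the filter or the intensity trend, and averaging probe sets also ended its call (adjusted p = 0.0622 to 0.106).

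Of 29 polymerase II general factors, 3 were higher and 3 lower. The first 3 by p were GTF2H1, a TFIIH subunit that was 1.48-fold lower (log2 difference -0.57, adjusted p = 0.00105), GTF2A1, a TFIIA subunit that was 1.57-fold higher (0.65, adjusted p = 0.0049), and CCNH, the cyclin of the TFIIH kinase, which was 1.33-fold higher (0.41, adjusted p = 0.0126). Averaged over its probe sets GTF2A1 differed by 0.13 and did not pass (adjusted p = 0.813). The CCNH call ended without control-labelled replicate 2 (difference 0.33, adjusted p = 0.0553) and without an intensity trend (adjusted p = 0.0568). Of 19 pausing and elongation factors only CDK9, the kinase that releases paused polymerase II, changed and was 1.32-fold lower (log2 difference -0.40, adjusted p = 0.0047). Averaged over its probe sets CDK9 differed by -0.61 and did not pass (adjusted p = 0.108). None of 11 kinases and phosphatases of the polymerase II tail passed. GPN1, a GTPase of polymerase import and assembly, was 1.30-fold higher (0.37, adjusted p = 0.00402), 1 of 8 assembly genes. TFAM, which drives mitochondrial transcription, was 1.18-fold higher (0.24, adjusted p = 0.02005), 1 of 5 mitochondrial genes, and lost its call without RNF43-labelled replicate 2 or control-labelled replicate 1 or 2 (differences 0.21 to 0.24, adjusted p = 0.0705 to 0.0857). It was also lost without an intensity trend, averaged over probe sets and without _x_at and _s_at sets (differences 0.15 to 0.24, adjusted p = 0.0597 to 0.64).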

How the data were processed

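The 6 arrays were grouped by their titles, 3 per siRNA. The deposited values are log2 signals made with MAS5, per the submitters' processing notes. Its version is not given in the sources used here, and base 2 was inferred from their range. Linear means trimmed at each end agreed across arrays (497.03 to 497.23), so the arrays had been scaled before deposit, which would hide a shift common to all transcripts. Values were used as deposited, 391 to 628 per array being exactly 0. Detection calls and scan batches were not used here, and the number of arrays limits the precision.

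Of 54613 probe sets, 41091 named 1 gene, 1801 several and 11721 none in the platform annotation. Symbols were compared with RefSeq (GRCh38.p14), and none needed a change. Each gene took its brightest single-gene set, and 11853 genes in the upper 50% of signal were tested with limma 3.58.1 in R 4.3.3 (intensity trend, two-sided, Benjamini-Hochberg, threshold 0.05). Intervals are 95%. The named genes are RNF43, every changed member, every POLR2J copy, the 2 members with the smallest p among those not passing in each list, and up to 3 changed genes per list of partner proteins. The remaining members were named as not passing. The members and lists were chosen with earlier results of these data known. The steps were tested on simulated data. Alternatives covered scaling, added signal, filter, variance model, probe set choice, replicate block and leaving out each array.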

Additional observations from a re-analysis of the deposited data

How the results depend on the processing

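Across 16 alternatives, 3 of the 17 changed subunit genes passed wherever tested (MED11, MED21 and POLR2E), and 14 lost the call under at least 1. MED11 has 1 single-gene set, so averaging could not change its values. Neither MED11 nor POLR2E was tested without _x_at and _s_at sets. Averaging a gene's probe sets left 1587 changed genes (2684 as reported; 798 higher, 789 lower), 4 changed polymerase genes (10; 2 higher) and 2 changed Mediator genes (7; 1 higher, 1 lower), and gave POLR2A -0.18. Without _x_at and _s_at sets, 5 of 23 tested polymerase and 4 of 21 tested Mediator genes changed, with 0 lower in either. That setting changed 2044 of 9200 tested genes and gave MED4 -0.17. It could not test MED11, POLR2C and POLR3D, which were lower in the main fit. Without an intensity trend, 4 polymerase genes were higher, and 6 partner genes (12) and 8 member probe sets (19) passed. Without the filter, 4 Mediator genes changed, 2 of them higher. Leaving out each array gave 1739 to 2653 changed genes (875 to 1408 higher, 864 to 1251 lower), 5 to 9 polymerase genes (4 to 5 higher, 1 to 4 lower), 4 to 8 Mediator genes (2 to 4 higher) and 7 to 18 member probe sets. The causes were not tested.

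Deviations of same-numbered arrays correlated at 0.162, 0.0772 and 0.268, and those of other pairs at -0.211 to 0.0859. Same-numbered pairs were thus mostly higher, although the lowest of them (0.0772) was under the highest other pair (0.0859). The main fit did not use the number as a pairing, and whether same-numbered arrays shared a batch was not tested. With the replicate number as a block, 3908 genes changed, 5 polymerase genes were lower, and 26 partner genes and 30 member probe sets passed. No other alternative, counting the POLR2J copies included, moved these counts by over 1.5 times. Current symbols gave the same 59 members, so their use could not move a count. Signal over background limits POLR2J2, MED12L and the single-gene set of MED24.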
